A study of Mus musculus with 40 samples.

Results

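The enzymes described here consume NAD+: the 7 sirtuins Sirt1 to Sirt7, the nuclear poly(ADP-ribose) polymerases Parp1 and Parp2, and the membrane NAD+ glycohydrolase Cd38. They were taken by name as 10 of the 55487 genes of the count table, and all 10 were among the 20297 genes with enough counts to be tested. Their mRNA was followed in whole liver of mice that lack Nampt in hepatocytes (HNKO) and in WT mice. HNKO mice carried floxed Nampt alleles and Cre driven by the albumin promoter, which is active in hepatocytes. The WT mice were their littermates, which the study's methods describe as floxed too. Nampt was not measured here by cell type. All mice were female, of the strain background C57BL/6JBomTac, and were adults given a purified diet (PD), with livers taken on day 3, 6, 12 or 21. The labels list these days as an age, whereas the study's methods give them as days of feeding, which is how they are used here.

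NAMPT makes the precursor of NAD+ from nicotinamide, and nicotinamide is what the consuming enzymes release when they break NAD+ down. Sirtuins use NAD+ to remove acetyl and other acyl groups from proteins, PARPs use it to attach ADP-ribose to proteins at sites of DNA damage, and CD38 hydrolyzes it at the cell surface and in internal membranes. In the liver, sirtuins are known for their work on chromatin and on mitochondrial enzymes of fat and amino acid metabolism, and CD38 is carried by many immune cells as well as by cells of the liver itself.

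Each library came from the liver of 1 mouse, with 3 to 6 libraries for each genotype and day and 38 libraries in all. A further 2 HNKO libraries of day 21, described as having failed quality control, were left out of the comparisons. Total counts ran from 16151037 to 64181492, with a median of 26466478.5. Levels are given as log2 CPM, the binary logarithm of counts scaled to library size, unless a scale per length is named. Nampt itself was lower in HNKO at days 3, 6 and 12, with fitted log2 fold changes of -0.93, -0.90 and -0.82, and the value of -0.69 for day 21 missed the threshold (adjusted p = 0.161). At day 6 the genotypes overlapped: WT libraries were at 7.28, 7.09, 5.997 and 5.99 log2 CPM and HNKO libraries at 5.69, 6.36, 5.48, 5.55 and 5.81, so that HNKO replicate 7 lay above WT replicates 27 and 28. Between libraries numbered up to 21 the Nampt means differed by -1.16 at day 6, and between those numbered from 22 by -0.38. Averaged over the days it was -0.83 (adjusted p = 2.6e-06), which passed in all 38 fits that left out a library. The Nampt call was lost at day 3 without WT replicate 5 (adjusted p = 0.0560), at day 6 without WT replicate 8 (-0.65, 0.106), WT replicate 10 (0.0683) or HNKO replicate 29 (0.0639), and at day 12 without WT replicate 16 (-0.47, 0.142) or HNKO replicate 35 (0.0562). With only the libraries of a day in the fit, Nampt missed the threshold at day 6 (0.0841) and day 12 (0.0773) and passed at day 21 (0.0247). The hepatocyte markers were present in all libraries, with a summed level of 85400 to 145000 CPM in WT and 55100 to 114000 CPM in HNKO. Most of this sum is Alb.

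Compared per kilobase of exon, the members of the group spanned about an order of magnitude, and the mitochondrial deacetylase Sirt3 had the highest mean in WT liver. The length was the union of exons over all annotated transcripts, such as 5973 bases from 10 transcripts for Sirt3. The order between genes therefore depends on the annotation. The mean level in the 19 WT libraries was 12.2 CPM per kb for Sirt3 and 10.1 CPM per kb for Parp1, the main sensor of DNA strand breaks. Sirt7 (7.46), Sirt2 (7.12) and Cd38 (5.66 CPM per kb) followed. Sirt1 (3.92), Parp2 (3.66), Sirt4 (3.07) and Sirt5 (2.80 CPM per kb) were lower, and Sirt6, a chromatin deacetylase, was lowest at 1.17 CPM per kb. Parp1 exceeded Sirt7, Cd38 exceeded Sirt1, and Sirt5 exceeded Sirt6 in all 38 libraries. The other neighbors in this order were not separated in every library. Sirt3 exceeded Parp1 in 16 of 19 WT libraries and in 8 of 19 HNKO libraries. Sirt2 exceeded Cd38 in 17 of 19 WT and 9 of 19 HNKO libraries, and Sirt1 exceeded Parp2 in 10 of 19 WT and 4 of 19 HNKO libraries. These counts are a description of the libraries, and no test of them was made.

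**Figure D1:**
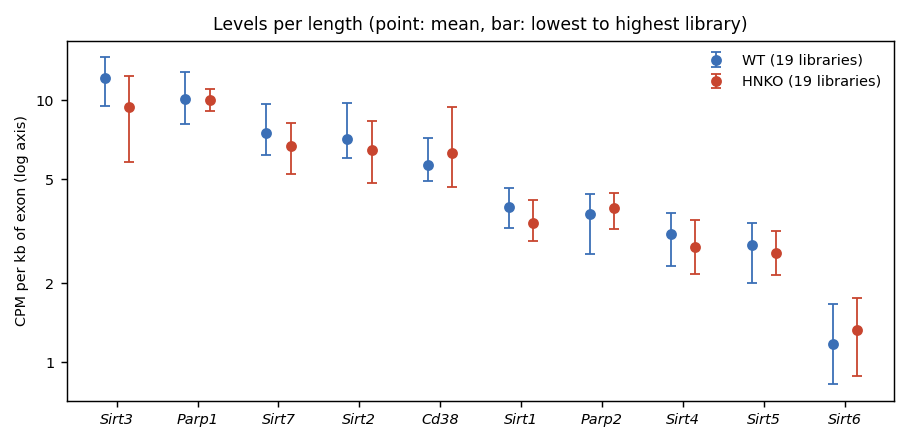
Level of each NAD+ consumer in CPM per kb of exon (log axis) in 19 WT and 19 HNKO libraries. Points are means and bars run from the lowest to the highest library. Sirt3 averaged 12.2 CPM per kb in WT and 9.44 in HNKO.

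To determine which of these genes differed between genotypes at a given day, HNKO and WT were compared with edgeR's quasi-likelihood test, with p-values adjusted over all genes tested. At day 3, Sirt1 and Sirt3 were lower in HNKO, 2 of the 10 genes, where 4.66% of all tested genes passed, 1.71% as lower and 2.95% as higher. At day 6, Sirt3 was lower and Cd38 was higher, again 2 of 10, where 12.8% of all tested genes passed, 4.37% as lower and 8.42% as higher. None of the 10 passed at day 12, where 7.82% of all genes did (3.27% lower, 4.56% higher). None passed at day 21, where 3.12% did (0.916% lower, 2.21% higher), and without HNKO replicate 37 of that day the number of genes called fell from 634 to 13. By the unadjusted p under 0.05, 2 members were counted at day 3 (20.9% of all genes) and 5 at day 6 (26.6%), while day 12 had 0 (24.5%) and day 21 had 3 (3655 of 20297 genes), so the share at day 3 is that of all genes. DESeq2 also called none at day 12 and day 21. Many genes passed at day 6, so 2 of 10 members is close to the background there.

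When the 4 daily log2 fold changes were averaged, which uses all 38 libraries, 6 of 10 members passed. Sirt1, Sirt2, Sirt3, Sirt4 and Sirt7 were lower and Cd38 was higher in HNKO. In this contrast 36.4% of all tested genes passed, 17.3% as lower and 19.2% as higher. The median averaged log2 fold change of the 10 members was -0.13, and that of all tested genes was -0.01. The averaged contrast is made from the same libraries as the daily ones and is not a second measurement.

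The libraries of the 2 genotypes did not overlap for Sirt1 and Sirt3 at day 3, where this held for 4.11% of all tested genes. At day 6 they did not overlap for Sirt1, Sirt3, Sirt5, Sirt7 and Cd38, 5 of 10 members against 12.8% of genes. At day 12 all 10 members overlapped, where 4.79% of genes did not overlap. At day 21, with 3 HNKO libraries, Sirt2, Sirt3 and Sirt4 did not overlap, against 13.9% of genes. The labels number the libraries in a single run from 1 to 41, in which the days start again at 22; it was split there into 2 series, a division made here and not stated in the labels. At day 21 all 3 HNKO libraries but only 2 of 5 WT libraries belong to the second series, so genotype and series are not balanced there. Within the second series the HNKO mean at day 21 differed from the WT mean by -0.27 log2 CPM for Sirt2, -0.21 for Sirt3 and -0.14 for Sirt4.

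**Figure D2:**
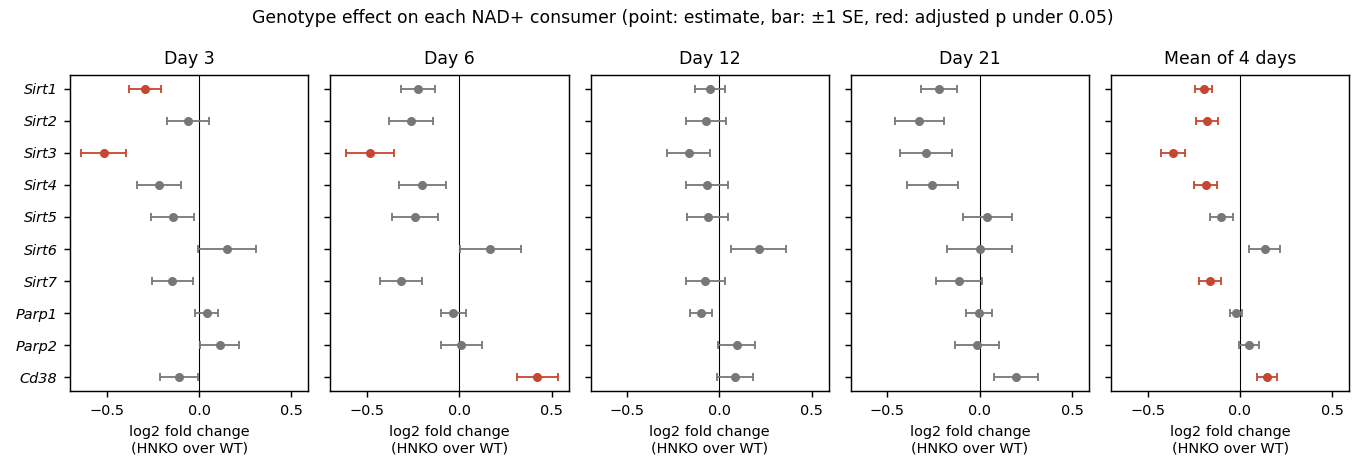
Log2 fold change of HNKO over WT (horizontal axis) for each NAD+ consumer at each day and averaged over the 4 days, with bars of 1 SE and red points for an adjusted p under 0.05 in edgeR. Sirt3 and Sirt1 pass at day 3, Sirt3 and Cd38 pass at day 6, none passes at day 12 or day 21, and 6 pass in the average.

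Sirt3, the main deacetylase of the mitochondrial matrix, had the largest averaged difference of the 10 genes. At day 3 the WT libraries were at 6.09, 6.21, 6.27, 6.36 and 6.08 log2 CPM, and the HNKO libraries were at 5.62, 5.71, 5.61, 5.91 and 5.58. Each HNKO library was therefore below each WT library, and Sirt3 fell by 0.52 on the log2 scale (SE 0.12, adjusted p = 0.0136). At day 6 the WT libraries were at 6.20, 6.44, 6.18 and 6.19 log2 CPM and the HNKO libraries at 5.94, 5.72, 5.12, 5.96 and 5.99. The groups again did not overlap, and HNKO replicate 29 lay well below the other 4 HNKO libraries. The fitted log2 fold change at day 6 was -0.48 (SE 0.13, adjusted p = 0.0119).

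At day 12 Sirt3 ran from 5.82 to 6.31 log2 CPM in 5 WT libraries and from 5.65 to 6.22, with a median of 5.85, in 6 HNKO libraries. The groups overlapped, and the fitted difference was -0.17 on the log2 scale (SE 0.12), with an adjusted p of 0.394. At day 21 the WT libraries were at 6.27, 6.27, 6.33, 6.14 and 6.16 and the HNKO libraries at 5.66, 6.09 and 6.05 log2 CPM. All 3 HNKO libraries lay below the WT libraries, and the fitted -0.29 (SE 0.14) missed the threshold (adjusted p = 0.274). Averaged over the days, Sirt3 was lower by -0.36 on the log2 scale (SE 0.06, adjusted p = 3.5e-05).

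The daily calls for Sirt3 rested in part on single libraries. Without WT replicate 25 the adjusted p at day 3 was 0.0508. At day 6, the log2 fold change was -0.41 (adjusted p = 0.0580) without WT replicate 10 and -0.33 (adjusted p = 0.0686) without HNKO replicate 29, and with only the day 6 libraries in the fit the adjusted p was 0.0984. The averaged difference passed in all 38 fits that left out a library in turn. The hepatocyte markers gave a summed level of 110000 to 122000 CPM in WT and 63800 to 114000 CPM in HNKO at day 3, and 110000 to 130000 against 55100 to 98800 CPM at day 6, with 0 of 8 markers called lower at day 3, where the sums overlapped, and 2 of 8 at day 6. At day 12, where Sirt3 was not called, the median sum was 110000 CPM in WT and 94500 CPM in HNKO, with 0 of 8 markers called. HNKO replicate 29, the lowest for Sirt3, was also the lowest of its group in that sum. Alb made up most of the sum, with a median of 2161314 counts per library against 136721.5 for Apoa1, the next of the 8. The median log2 fold change over the 8 markers was -0.25 at day 3 and -0.40 at day 6. In bulk liver, fewer hepatocytes and less RNA per hepatocyte cannot be told apart, and the part of these shifts in the Sirt3 difference was not tested.

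Exons of Sirt3 share 418 bases with Ric8a and 342 bases with Psmd13, both on the opposite strand. The library kit was stranded, but whether strand was used in counting is not given in the sources used here. Psmd13, a proteasome subunit, gave -0.05, 0.06, -0.03 and 0.15 on the log2 scale for days 3, 6, 12 and 21, none of which passed. Ric8a, a chaperone of G protein alpha subunits, did not pass at any day and was higher in the average by 0.15 (adjusted p = 0.0019). Neither gene passed as lower at any day.

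RefSeq (GRCm38.p6) gives 2 start sites for Sirt3 on chromosome 7, and both windows of 300 bases around them (250 before and 50 after) are shown, because Sirt3 carried the largest difference. Capitals mark matches, on either strand, to a set of 7 motifs: the E-box CACGTG, the GC box GGGCGG, the CCAAT box CCAAT, the ETS motif CCGGAAG, the ERR element TCAAGGTCA, the STAT motif TTCNNNGAA and the TATA box TATAAA, where overlapping matches were all counted. The distal window is chr7:140882260-140882559 and the proximal one chr7:140881820-140882119, both on the minus strand and written 5′ to 3′ of the gene.
Sirt3 distal start: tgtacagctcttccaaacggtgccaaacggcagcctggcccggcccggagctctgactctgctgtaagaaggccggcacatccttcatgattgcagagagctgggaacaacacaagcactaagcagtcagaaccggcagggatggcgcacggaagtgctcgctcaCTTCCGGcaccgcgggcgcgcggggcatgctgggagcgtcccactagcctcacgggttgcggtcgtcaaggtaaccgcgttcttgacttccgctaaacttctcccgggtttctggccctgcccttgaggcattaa
Sirt3 proximal start: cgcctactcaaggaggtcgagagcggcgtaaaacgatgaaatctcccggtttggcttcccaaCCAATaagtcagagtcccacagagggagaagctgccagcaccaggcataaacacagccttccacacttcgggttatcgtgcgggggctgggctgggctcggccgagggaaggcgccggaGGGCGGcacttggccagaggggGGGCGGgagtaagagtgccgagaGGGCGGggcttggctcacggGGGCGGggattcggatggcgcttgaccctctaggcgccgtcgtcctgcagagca
The distal window holds 1 ETS match and the proximal window holds 4 GC boxes and 1 CCAAT box. Of 32851 RefSeq promoter windows of this length, 8.86% hold the ETS motif, 35.7% the GC box and 37.4% the CCAAT box, with 0.423% for the ERR element, 8.30% for the STAT motif and 13.6% for the TATA box. The matches are a description of these letters.

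Sirt1, the nuclear deacetylase that acts on histones, p53 and FOXO factors, differed less than Sirt3 and in fewer settings. At day 3 it was at 4.33, 4.27, 4.56, 4.44 and 4.23 log2 CPM in WT and at 3.95, 4.03, 4.04, 4.21 and 4.15 in HNKO. The groups did not overlap, although the highest HNKO and the lowest WT library were close. Sirt1 fell by 0.29 on the log2 scale there (SE 0.09), with an adjusted p of 0.0429. This call held in 2 of 10 fits that left out a library of day 3, without HNKO replicate 22 or WT replicate 26, and the adjusted p over the 10 fits ran from 0.0203 to 0.130. It was also lost with no filter on low counts (adjusted p = 0.104), with all 40 libraries (0.0717) and with only the day 3 libraries (0.116). The clock genes summed to 442 to 677 CPM in WT and 351 to 449 CPM in HNKO at day 3, with 0 of 12 called. Their log2 fold changes ran from -1.61 for Ciart to 0.25 for Npas2, with a median of -0.57, so the sum does not give clock phase. The part of the clock genes in the Sirt1 difference was not tested.

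At day 6 Sirt1 was at 4.37, 4.37, 4.30 and 4.47 log2 CPM in WT and at 4.10, 4.23, 4.15, 4.15 and 4.15 in HNKO. The groups were again apart, and the fitted -0.22 (SE 0.09) missed the threshold (adjusted p = 0.104). At day 12 the 5 WT libraries ran from 4.12 to 4.55 and the 6 HNKO libraries from 4.05 to 4.44 log2 CPM, and the fitted difference was -0.05 (SE 0.08). At day 21 WT libraries were at 4.48, 4.62, 4.49, 4.60 and 4.32 and HNKO libraries at 4.11, 4.47 and 4.26 log2 CPM. The fitted difference there was -0.22 (SE 0.10), which missed the threshold (adjusted p = 0.227). Averaged over the days, Sirt1 fell by 0.20 on the log2 scale (SE 0.04, adjusted p = 7.4e-04), and this passed in all 38 fits with a library left out.

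The window around the Sirt1 start, chr10:63338986-63339285 on the minus strand in the same build, is shown for comparison because Sirt1 also passed at day 3. It is GC-rich, with 79.0% G and C and 47 CpG sites.
Sirt1: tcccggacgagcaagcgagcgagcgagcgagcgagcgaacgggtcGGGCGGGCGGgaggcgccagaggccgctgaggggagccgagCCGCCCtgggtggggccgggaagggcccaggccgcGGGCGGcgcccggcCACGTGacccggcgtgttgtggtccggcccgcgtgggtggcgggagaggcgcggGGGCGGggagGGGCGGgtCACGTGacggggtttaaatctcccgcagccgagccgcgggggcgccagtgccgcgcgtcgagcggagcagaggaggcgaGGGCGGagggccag
It holds 2 E-boxes, the motif bound by CLOCK, MYC and related factors, and 7 GC boxes. The first bases of the E-boxes lie at -115 and -43 from the start, and 7.15% of all windows hold an E-box.

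**Figure D3:**
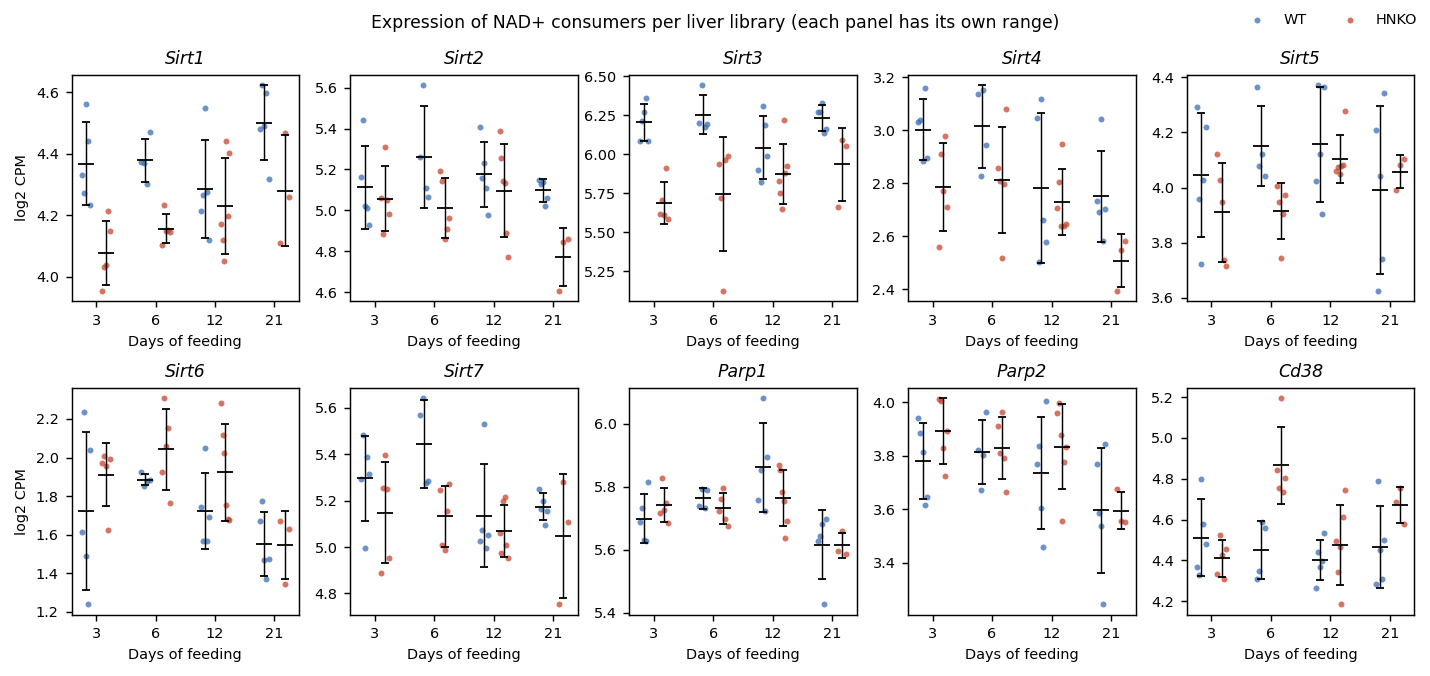
Log2 CPM (vertical axis, its own range in each panel) of the 10 NAD+ consumers in each of 38 libraries by day of feeding, WT in blue and HNKO in red. Black marks are group means and bars are 1 SD; the HNKO points of Sirt3 lie below the WT points at days 3, 6 and 21, and those of Cd38 lie above them at day 6.

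Of the remaining sirtuins, Sirt2, Sirt4 and Sirt7 passed only in the average over the days, each with a smaller difference than Sirt3. Sirt2, a mainly cytoplasmic deacetylase of tubulin and other proteins, had an averaged log2 fold change of -0.18 (SE 0.06, adjusted p = 0.0155). Its largest daily value was -0.33 at day 21 (SE 0.13, adjusted p = 0.166), where HNKO libraries ran from 4.61 to 4.86 and WT libraries from 5.02 to 5.15 log2 CPM. With the series as a covariate this value was -0.18 (adjusted p = 0.309), and within the second series alone it was -0.27. Sirt7, a nucleolar sirtuin, averaged -0.16 (SE 0.06, adjusted p = 0.0255), with -0.32 at day 6 (adjusted p = 0.0687), where HNKO libraries ran from 4.99 to 5.27 and WT libraries from 5.28 to 5.64 log2 CPM. Sirt7 shares 124 exon bases on the same strand with Mafg, a small MAF transcription factor, which averaged -0.23 (adjusted p = 0.0038), so reads of this stretch cannot be assigned with certainty.

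The mitochondrial sirtuins Sirt4 and Sirt5 had small differences. Sirt4, known as an ADP-ribosyltransferase and lipoamidase, averaged -0.19 (SE 0.06, adjusted p = 0.0187) at a low level of 2.39 to 3.16 log2 CPM over the 38 libraries. Sirt5, which removes succinyl, malonyl and glutaryl groups, averaged -0.10 (SE 0.06, adjusted p = 0.202), with -0.24 at day 6 (adjusted p = 0.208) and 0.04 at day 21. Of all 51-base stretches in Sirt5 transcripts, 13.8% also occur in transcripts of other genes, so its counts are less certain than those of the other members, at 0 to 1.40%.

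Sirt6, which acts on chromatin at glycolytic genes and telomeres, was the sirtuin with a positive averaged value, and it did not pass the test. Its log2 fold changes for days 3, 6 and 12 were 0.15, 0.17 and 0.21, that for day 21 was 0.00018, and the averaged value was 0.13 (SE 0.08, adjusted p = 0.211). It rested on 46 to 177 counts per library, the fewest of the 10 genes.

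The averaged calls for Sirt2, Sirt4 and Sirt7 depended on HNKO replicate 37 of day 21: without it the adjusted p was 0.0802 for Sirt2, 0.0721 for Sirt4 and 0.140 for Sirt7. Sirt4 also missed the threshold without HNKO replicate 29 of day 6 (0.0547). Sirt7 missed it without WT replicate 10 of day 6 (0.0506), HNKO replicate 23 of day 3 (0.0700), HNKO replicates 29 (0.0690) and 30 (0.0518) of day 6, and HNKO replicate 35 of day 12 (0.0554). With no filter on low counts the adjusted p was 0.0619 for Sirt4 and 0.0647 for Sirt7, and with the 2 libraries that failed quality control it was 0.381 for Sirt4.

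Parp1 and Parp2, which add ADP-ribose chains at DNA breaks, did not pass at any day or in the average. Parp1 ran from 5.43 to 6.08 log2 CPM in WT and from 5.59 to 5.87 in HNKO. Its averaged log2 fold change was -0.02 with a 95% interval of -0.09 to 0.04, the narrowest of the members, and its daily values ran from -0.10 to 0.04. Parp2 ran from 3.24 to 4.003 log2 CPM in WT and from 3.55 to 4.01 in HNKO, with an averaged log2 fold change of 0.05 and a 95% interval of -0.06 to 0.16. Proliferation markers moved over the same comparison: 5 of 6 were higher in HNKO in the average, with a median log2 fold change of 1.37 over the 6 and, at day 3, sums of 30.3 to 66.4 CPM in WT and 31.5 to 124 CPM in HNKO. Their part in the Parp1 and Parp2 values was not tested.

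Cd38 was the only member that was higher in HNKO by the test, at day 6 and in the average. At day 6 the WT libraries were at 4.31, 4.35, 4.59 and 4.56 log2 CPM and the HNKO libraries at 4.84, 4.75, 5.195, 4.74 and 4.80. Each HNKO library exceeded each WT library, with HNKO replicate 29 well above the rest. Cd38 was higher by 0.42 on the log2 scale (SE 0.11), with an adjusted p of 0.0104. This call held in all 9 fits that left out a library of day 6, with the smallest value, 0.35 (adjusted p = 0.0438), without HNKO replicate 29 and the highest adjusted p, 0.0494, without WT replicate 8, and it was lost with the 2 failed libraries in the fit (adjusted p = 0.0892).

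On the other days the Cd38 libraries of the genotypes overlapped. At day 3 WT libraries were at 4.37, 4.33, 4.80, 4.58 and 4.48 and HNKO libraries at 4.34, 4.53, 4.43, 4.31 and 4.45 log2 CPM, and the fitted difference was -0.11 (SE 0.10). At day 12 the 6 HNKO libraries ran from 4.19 to 4.75 with a median of 4.48, the WT libraries ran from 4.26 to 4.53, and the fitted difference was 0.08 (SE 0.10). At day 21 the WT libraries were at 4.29, 4.79, 4.45, 4.31 and 4.50 and the HNKO libraries at 4.68, 4.75 and 4.58, and the fitted 0.20 (SE 0.12) missed the threshold (adjusted p = 0.408). Averaged, Cd38 was higher by 0.15 (SE 0.05, adjusted p = 0.0307), and this missed the threshold without WT replicate 8 (0.0544) or WT replicate 10 (0.0504) of day 6 and with the 2 failed libraries (0.252).

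Markers of recruited monocytes, neutrophils and bile duct cells moved with Cd38 at day 6, and so did 2 of 6 stellate cell and fibroblast markers. The stellate cell and fibroblast sum was 448 to 508 CPM in WT and 514 to 694 CPM in HNKO at day 6. All 6 recruited monocyte markers were higher in HNKO, with a summed level of 7.13 to 9.39 CPM in WT and 23.5 to 128 CPM in HNKO. All 3 tested neutrophil markers were higher as well, with sums over the 5-gene list of 0.80 to 1.39 CPM in WT and 5.64 to 23.3 CPM in HNKO, although Ly6g was at 0 in 28 and Mpo in 26 of 38 libraries. The Kupffer cell and macrophage sum was 450 to 582 CPM in WT and 575 to 726 CPM in HNKO, with 1 of 7 markers called. None of 5 B and plasma cell markers was called at day 6, with sums of 6.49 to 8.83 CPM in WT and 7.03 to 12.0 CPM in HNKO. Cholangiocyte markers were higher for 5 of 6 genes, with sums of 34.3 to 46.3 CPM in WT and 165 to 754 CPM in HNKO. This sum mostly follows Spp1, with a median of 2509.5 counts per library against 107.5 for Sox9, the next of the 6. HNKO replicate 29, the highest for Cd38, also had the highest recruited monocyte, neutrophil and cholangiocyte sums. None of 6 T and NK cell markers was called at day 6. At day 3, 5 of 6 recruited monocyte and 5 of 6 cholangiocyte markers were higher while Cd38 was not (-0.11). None of 3 tested neutrophil markers and none of 7 Kupffer cell and macrophage markers was called at day 3. Their median log2 fold changes were 0.93 and -0.09 there, against 3.49 and 0.46 at day 6. Of the B and plasma cell markers, 1 of 5, Ms4a1, was lower at day 3, with a median of -0.93 over the 5, and WT replicate 26, the median of its group for Cd38, summed to 60.1 CPM against 6.97 to 8.63 CPM in the other WT libraries. The part of any of these cells in the Cd38 difference was not tested.

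**Figure D4:**
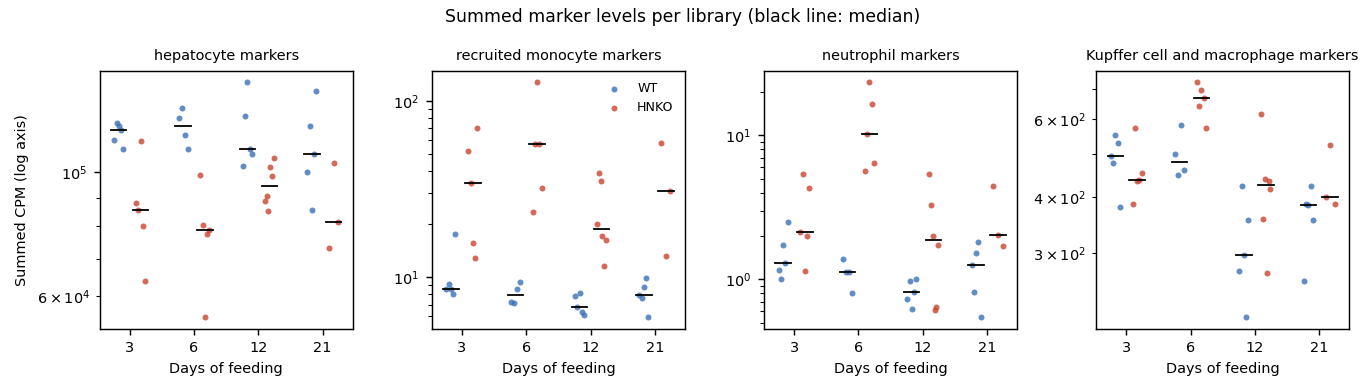
Summed CPM (log axis) of the hepatocyte, recruited monocyte, neutrophil and Kupffer cell and macrophage markers in each library by day, WT in blue and HNKO in red, with medians as black lines. At day 6 the recruited monocyte sum is 7.13 to 9.39 CPM in WT and 23.5 to 128 CPM in HNKO. Most of the hepatocyte sum is Alb.

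The start of Cd38 is shown because its scarcity of CpG sites sets it apart from the other members. Its window, chr5:43868559-43868858 on the plus strand, holds 1 CpG site.
Cd38: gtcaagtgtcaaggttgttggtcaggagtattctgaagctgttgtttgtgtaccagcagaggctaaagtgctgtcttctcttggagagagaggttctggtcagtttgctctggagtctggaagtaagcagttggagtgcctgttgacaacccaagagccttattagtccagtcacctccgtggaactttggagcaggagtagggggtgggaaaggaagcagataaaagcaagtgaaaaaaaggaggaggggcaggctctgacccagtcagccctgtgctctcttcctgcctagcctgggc
The observed to expected ratio of CpG in it is 0.05, a value that 6.40% of all windows fall below, whereas the other 9 members have ratios from 0.52 to 1.09 and the median of all windows is 0.38. None of the 7 motifs occurs in it, which says only that these letters are not in these 300 bases.

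To test whether a genotype difference changed between days, an interaction of genotype and day was fitted. No member passed, and no gene of the 20297 did (0%). By the unadjusted p under 0.05, 1 of the 10 members (Cd38, unadjusted p = 0.0122 from edgeR) and 966 of all genes were counted, and DESeq2 called 16 genes, none of them a member. The lack of a call at day 12 is therefore not shown to differ from the calls at days 3 and 6. Within HNKO, Cd38 was the 1 member that changed over the 4 days (adjusted p = 0.0097), with means of 4.41 (day 3), 4.87 (day 6), 4.48 (day 12) and 4.67 (day 21) log2 CPM, where 7.90% of all genes passed. With the 2 failed libraries in the fit Parp2 passed in its place. Within WT no member passed, against 5.84% of all genes, with 2 members and 21.2% of all genes under an unadjusted p of 0.05. Parp1 was closest (adjusted p = 0.0506), with WT means of 5.70, 5.76, 5.86 and 5.61 log2 CPM, and it passed under 5 of 8 other settings, DESeq2 among them.

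The comparison could be made within each series for 7 combinations of series and day. Sirt3 was lower in HNKO in 7 of 7, with differences of the means from -0.51 to -0.08 log2 CPM. Sirt1, Sirt2, Sirt4 and Sirt7 were lower in 6 of 7, and Cd38 was higher in 6 of 7, from -0.24 to 0.47. Sirt6, which was called at no day and not in the average, was higher in 7 of 7, from 0.06 to 0.36. Parp1 was lower in 4 and higher in 3. These comparisons split the same libraries, with 2 or 3 per genotype in each, and are not a second measurement. The share of all genes with such counts was not taken. With the series as a covariate, the same members were called at day 3, at day 6 and in the average.

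The averaged contrast called 36.4% of all tested genes, 17.3% as lower and 19.2% as higher, and the counts of the lists around these enzymes are to be read against those shares. The other PARPs and tankyrases moved in both directions. In the average, 4 of 13 were higher and 2 were lower, with a median log2 fold change of 0.04. Parp8, a mono-ADP-ribosyltransferase, was higher by 0.75 (SE 0.11, adjusted p = 1.6e-06) and passed at day 3 and day 6. Of 9 genes for ADP-ribose removal and PARP1 cofactors, none was higher and 4 were lower in the average, with a median of -0.14. Macrod1, which removes mono-ADP-ribose, averaged -0.58 (SE 0.09) and passed at day 6 and day 21. Xrcc1, the scaffold of single-strand break repair, averaged -0.36 (SE 0.05) and passed at day 6 and day 12.

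Among the other NAD+ cleaving enzymes and genes of their families, 6 of 7 were tested, and 3 were higher and 1 lower in the average. Cleavage of NAD+ by their products was not measured, so these calls are not a measure of NAD+ use. The median of the list, 0.69, includes Art1, which had no counts in most libraries. Its fitted log2 fold changes were imprecise, at 0.65 (SE 3.31) for day 3 and 7.19 (SE 2.29) for day 12, and day 6 gave no SE. Without Art1 the middle value of the list is that of Sarm1, 0.49, a gene named here after its value was seen. Art4, of the ADP-ribosyltransferase family of surface proteins, averaged 0.88 (SE 0.13) and passed at day 3 and day 6. Art3, of the same family, averaged -0.58 (SE 0.105) and passed at day 3, day 6 and day 12. Both NAD kinases, which phosphorylate NAD+ to NADP+, were lower in the average. Nadk2, the mitochondrial one, averaged -0.37 (SE 0.05) and passed at day 3, day 6 and day 12.

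Of 9 sirtuin regulators, none was higher and 3 were lower in the average, against 36.4% of all genes called, with a median of -0.13. Ppargc1a, a coactivator that SIRT1 deacetylates, averaged -0.35 (SE 0.09, adjusted p = 0.0039). Foxo1, a transcription factor of fasting metabolism, averaged -0.18 (SE 0.06, adjusted p = 0.0219), but it missed the threshold without HNKO replicate 23 of day 3 (0.0587), HNKO replicate 29 of day 6 (0.0607), or HNKO replicate 37 (0.0626) or 40 (0.0793) of day 21, and with all 40 libraries (0.146). Of 10 genes encoding substrates of the mitochondrial sirtuins, 1 was higher and 5 were lower in the average, with a median of -0.28. Acadl, the long-chain acyl-CoA dehydrogenase deacetylated by SIRT3, averaged -0.43 (SE 0.06). Mlycd, malonyl-CoA decarboxylase, averaged -0.28 (SE 0.05). Acss1, the mitochondrial acetyl-CoA synthetase, was the substrate gene that was higher, by 1.08 (SE 0.22). The median over all tested genes in the averaged contrast was -0.01, and the mRNA of a substrate is not a measure of its acylation.

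The averaged calls of Parp8, Macrod1, Xrcc1, Art3, Art4, Nadk2, Ppargc1a, Acadl, Mlycd and Acss1 passed in all 38 fits that left out a library. These genes were named for calls at 2 or more days in the same libraries or, for Ppargc1a, for its averaged p. Passing in the average is therefore in part built in and is not separate support. Their calls by day were less stable. At day 6, Parp8, Xrcc1, Art4, Nadk2 and Acadl passed in all 9 fits with a library left out, and at day 3 Art3 and Mlycd passed in all 10. The other day 3 calls held in 7 of 10 fits for Parp8, 3 of 10 for Art4 and 4 of 10 for Nadk2. Those of day 6 held in 8 of 9 fits for Macrod1, 7 of 9 for Mlycd, 5 of 9 for Art3 and Ppargc1a and 2 of 9 for Acss1. Those of day 12 held in 9 of 11 fits for Xrcc1, 5 of 11 for Acss1, 3 of 11 for Nadk2 and Acadl and 2 of 11 for Art3, and the day 21 call for Macrod1 held in 4 of 8. With only the libraries of the day, Parp8, Art4, Nadk2 and Mlycd missed the threshold at day 3, Macrod1, Art3 and Ppargc1a at day 6, and Xrcc1, Art3, Nadk2, Acadl and Acss1, which are all those named, at day 12, with adjusted p from 0.0503 (Ppargc1a) to 0.125 (Art3). With all 40 libraries, Parp8, Art3, Art4 and Nadk2 missed it at day 3, Art3 and Acss1 at day 6 and the same 5 genes at day 12, with adjusted p from 0.0518 (Parp8) to 0.283 (Art3). With no filter on low counts it was missed by Nadk2 at day 3, by Ppargc1a and Acss1 at day 6 and by Art3, Nadk2 and Acadl at day 12. With the edgeR 4 computation it was missed by Acss1 at day 6 (adjusted p = 0.053).

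**Figure D5:**
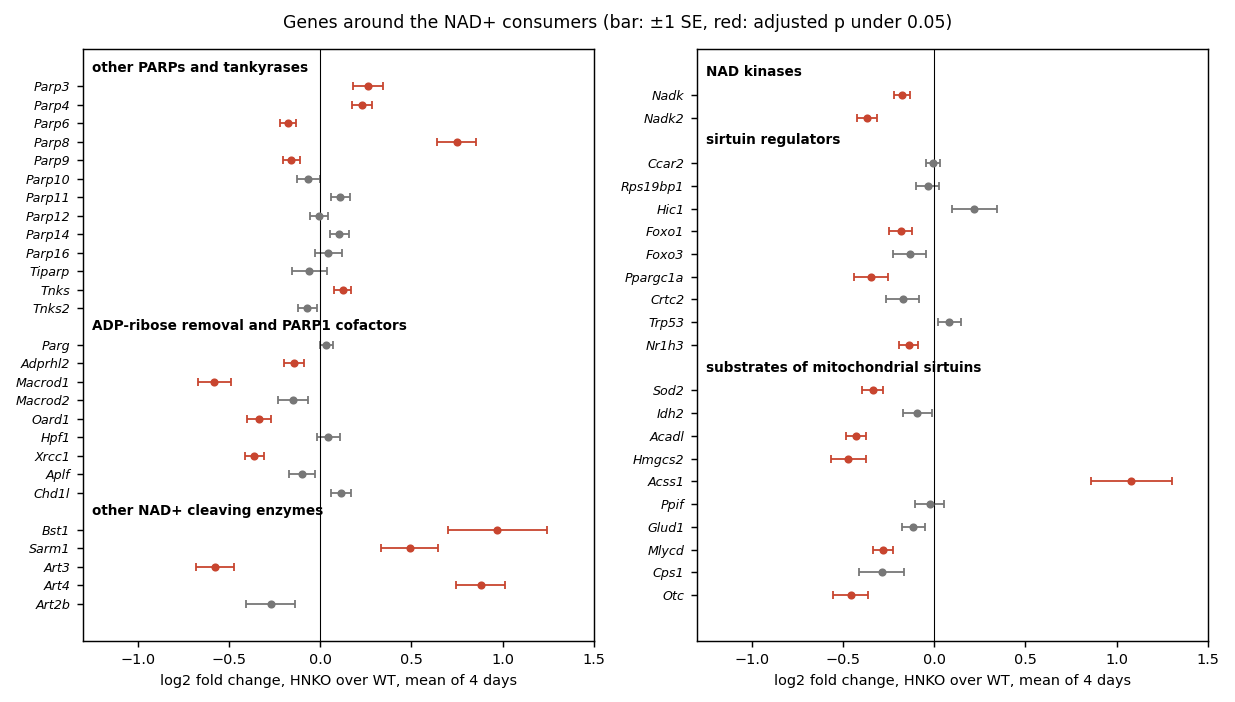
Averaged log2 fold change of HNKO over WT (horizontal axis) for the tested genes of 6 lists around the NAD+ consumers, with bars of 1 SE and red points for an adjusted p under 0.05 in edgeR. Parp8 (0.75) and Acss1 (1.08) lie to the right and Macrod1 (-0.58) and Art3 (-0.58) to the left; Art1, without counts in most libraries, and Art5, not tested, are not drawn.

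Across the 38 libraries, the genes whose log2 CPM followed a member most closely were found among 12495 genes outside the lists whose mean log2 CPM reached 1. Sirt3 had the closest companions of the 10, Sord, which encodes sorbitol dehydrogenase, and B630019A10Rik, each with Pearson r = 0.91. Sirt2 followed Naa80 (r = 0.86), Sirt7 followed Gpt, which encodes alanine aminotransferase (r = 0.85), and Sirt1 followed Zbtb44 (r = 0.83). Parp1 followed Noc2l (r = 0.81), Cd38 followed Bend4 (r = 0.79), Sirt5 followed Stap1 (r = 0.78), Sirt6 followed Pmp22 (r = 0.78), Sirt4 followed Surf1 (r = 0.75) and Parp2 followed Slc3a2 (r = 0.75). These values describe the libraries, which share genotype, day and composition, and each companion is the highest of many.

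Once the group means were removed, the members still varied together in part over the 38 libraries. The highest values were r = 0.57 for Sirt6 with Parp1, r = 0.55 for Sirt3 with Sirt4 and r = 0.50 for Sirt3 with Sirt7. The lowest were -0.51 for Sirt2 with Cd38, -0.50 for Sirt1 with Parp2 and -0.50 for Sirt3 with Parp2. The points share library depth and tissue composition, and no test was made of them.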

How the data were processed

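Total RNA of whole liver was depleted of rRNA and sequenced with paired 51-base reads. The authors deposited raw counts per gene, which were not normalized; per the submitters' processing notes they used STAR 2.7.2b, featureCounts 1.6.4 and edgeR 3.26.0 with GRCm38. Ensembl IDs were matched to symbols with GENCODE vM21 (55394 of 55487). Groups came from the sample titles. The label numbers run from 1 to 41 without repeats. They were split at 22, where the days start again, into 2 series that both hold libraries of either genotype, a division not stated in the labels.

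Counts of 38 libraries were filtered with filterByExpr (minimum count 10, minimum total 15), which left 20297 genes holding 99.9% of counts, scaled by TMM and tested with edgeR 4.0.16 (R 4.3.3) by the quasi-likelihood test with 1 mean per genotype and day and Benjamini-Hochberg adjustment over all tested genes. All 8 groups entered a single fit. Log2 CPM used a prior count of 2. Depth was 16151037 to 64181492 counts per library. No library pair within a group (74 pairs) agreed within counting noise, with chi-square per gene of at least 12.5. DESeq2 1.42.0, other filters, scalings and sample sets, and each library left out were alternatives.

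The members and gene lists were chosen with earlier results of these data known. All members and Nampt were named; from each list around them, the genes called at 2 or more days, or, where a list had none, the 2 with the smallest averaged p. For likeness, the 2 genes of highest Pearson r were taken, of which the first is given except for Sirt3. The genes overlapping a member in exons were named after their values were seen. Promoter windows were RefSeq's on GRCm38.p6, and all 10 members matched. In the averaged contrast the marker lists gave 3 of 8 hepatocyte markers lower and 6 of 6 recruited monocyte, 5 of 6 proliferation, 6 of 6 cholangiocyte, 4 of 7 Kupffer cell and macrophage, 3 of 3 tested neutrophil and 1 of 6 T and NK cell markers higher, 4 of 6 stellate cell and fibroblast markers higher and 1 lower, and 1 of 6 endothelial markers and 1 of 12 clock genes lower, with 0 of 5 B and plasma cell markers called.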

Additional observations from a re-analysis of the deposited data

Results flagged for a closer look

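In groups of 4 to 10 libraries, 7 of 77 gene and group combinations held a library set apart from the others by Dixon's criterion at 95%, where chance alone gives about 1 in 20. Sirt3 was at 6.445 log2 CPM in WT replicate 10 of day 6, above 6.177 to 6.200 in the other 3 libraries, and the day 6 call for Sirt3 was lost without it. Cd38 was at 5.195 in HNKO replicate 29 of day 6, above 4.736 to 4.844, and its call held without it. In WT replicate 16 of day 12, both Nampt (7.243, others 5.895 to 6.124) and Sirt7 (5.531, others 4.994 to 5.074) were high. Sirt5 was at 4.276 in HNKO replicate 36 of day 12 (others 4.049 to 4.080), Sirt6 was at 1.622 in HNKO replicate 22 of day 3 (others 1.956 to 2.010), and Parp1 was at 5.426 in WT replicate 39 of day 21 (others 5.629 to 5.697).

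In the 2 HNKO libraries of day 21 that were left out for failed quality control, several members lay outside their WT range. Sirt4 was above it, at 3.479 log2 CPM in library 17 and 3.060 in library 18, against 2.605 to 3.049 in WT and 2.400 to 2.599 in the HNKO libraries kept. Sirt4 was the member that lay above the WT range in both, but others lay further from theirs. Sirt6 lay outside it on opposite sides, at 3.322 in library 17 and 0.9201 in library 18 (WT 1.395 to 1.777). Cd38 was below it at 3.585 in library 17 and within it at 4.735 in library 18 (WT 4.283 to 4.791). Sirt2 (4.958 and 4.386, WT 5.042 to 5.144), Sirt3 (5.817 and 5.897, WT 6.158 to 6.336) and Sirt7 (4.344 and 4.976, WT 5.119 to 5.249) were below the WT range in both.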

How the results depend on the processing

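The number of members called at day 3 fell from 2 to 1 with no filter on low counts, with all 40 libraries and with only the libraries of the day, and was 0 to 2 with a library left out. At day 6 it fell from 2 to 1 with all 40 libraries and with only the libraries of the day, and was 1 to 2 with a library left out. In the average it was 3 to 6 with a library left out and 4 with no filter or with all 40 libraries. Within WT the day effect rose from 0 to 1 (Parp1) with DESeq2 size factors in edgeR, DESeq2, a minimum of 10 counts in every library, the edgeR 4 computation and the series as covariate, and was 0 to 1 with a library left out. The interaction and the calls at days 12 and 21 stayed at 0 members in every fit run. The cause of these changes was not tested, except that fewer libraries entered the fits of single days.

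The values that changed sign were not called in any fit. For Parp1 at day 21 the log2 fold change became 0.0013 with DESeq2 size factors, 0.00167 with no filter, 0.0201 with at least 10 counts, 0.000323 with all 40 libraries, 0.0163 with only that day and 0.0329 with the series as covariate. Parp2 at day 21 became 0.0112, 0.00706 and 0.0385 with at least 10 counts, only that day and the series, Parp1 became 0.00261 at day 6 and 0.00207 in the average with at least 10 counts, and Sirt4 at day 21 became 0.098 with all 40 libraries. With a library left out, values spanned 0 for Sirt2 at day 3 (-0.129 to 0.0307), Parp2 at day 6 (-0.0337 to 0.0647), Sirt1 (-0.0967 to 0.0217), Sirt4 (-0.131 to 0.025) and Sirt7 (-0.112 to 0.0393) at day 12, and Sirt5 (-0.0417 to 0.143), Sirt6 (-0.044 to 0.119), Sirt7 (-0.207 to 0.0392), Parp1 (-0.0483 to 0.0278) and Parp2 (-0.0916 to 0.0588) at day 21.

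Counts over all genes moved by 1.5 times or more: from 945 at day 3 to 331 with all 40 libraries, 630 with no filter (39297 genes tested), 420 with only that day and 1428 with DESeq2; from 2596 at day 6 to 1321 with all 40 and 1325 with only that day; from 1588 at day 12 to 624 and 867; and from 634 at day 21 to 1350 with all 40 and 994 with DESeq2. The day effect within WT moved from 1185 genes to 1886 with DESeq2, 581 with all 40 and 2224 with the series as covariate. With a library left out, the lowest and highest counts were 322 and 1668 at day 3, 1126 and 3027 at day 6, 852 and 1750 at day 12, and 13 and 718 at day 21, the 13 without HNKO replicate 37. No paired analysis was possible because each library has its own number and groups share none. Sirt6, with 46 to 177 counts per library, was the member most limited by depth.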
